A study of Mus musculus with 36 samples.

Results

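The lung response to 162 µg of tube-shaped titanium dioxide (TiO2) nanoparticles was followed from day 1 to day 28 by taking the change against 0 µg at day 28 and subtracting the change against 0 µg at day 1. This difference between days rests on 15 of the 29 mice and 19 of the 36 arrays of the series, chosen by their dose and time labels. Of these, 4 mice had 0 µg and were sampled at day 1, 4 had 162 µg at day 1, 3 had 0 µg at day 28 and 4 had 162 µg at day 28. All were female C57BL/6 mice, 5 to 7 weeks old at the start, and every mouse, controls included, had a single intratracheal instillation. Lung RNA was labelled with Cy5 and hybridised against a universal mouse reference RNA in Cy3, so a level below is the log2 ratio of lung to reference RNA, and no level of a gene is set against that of another gene. The study's methods speak of 5 mice a group for RNA, and 3 or 4 a group were analysed here. The titles of the arrays of 162 µg day 28 replicate 1 say day 1 while the time label says day 28. The mouse is counted at day 28, and results that change without it are given below.

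Particles that reach the airspaces are taken up by macrophages, and lung cells answer with chemokines that draw in neutrophils and monocytes and with an acute phase response. The serum amyloid A proteins, the classic acute phase reactants of the liver, are also made in the lung, where Saa3 is the form of epithelium and macrophages. Interferon-stimulated genes are switched on by IRF and STAT factors and include antiviral enzymes, chemokines for T cells and the MHC class I presentation pathway. Genes of DNA replication are switched on by E2F factors when cells enter the cell cycle. A difference taken between an early and a late time at the same dose shows which of these programmes differ in size between the times.

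The lung markers Sftpc (surfactant, alveolar type II cells), Scgb1a1 (club cells), Ager (alveolar type I cells), Foxj1 (ciliated cells) and Cdh5 (endothelium) were above background on all 19 arrays. Per array, 48.6 to 62.2% of probes were above background and 0 spots were saturated. The number of arrays limits the precision, and p-values measure the spread between mice within groups, estimated over all 29 mice of the series. Some arrays carried strong skeletal muscle signal. Over 23 skeletal muscle genes the mean log2 Cy5 signal was at least 9.95 on 12 of the 36 arrays and at most 7.87 on the other 24. Such arrays came from 4 of 4 mice with 0 µg at day 1 and 1 of 4 with 162 µg at day 1 (replicate 3), and from 0 of 3 and 0 of 4 mice at day 28. The muscle list had a median change of -2.20 on the log2 scale at day 1, 0.01 at day 28 and 2.17 between days, and the heart muscle list had -1.38, -0.33 and 0.89. The arrays of 0 µg day 1 replicate 1 disagreed, with 7.32 on slide 1 and 13.76 on slide 5. Squamous epithelium genes were also strong on some muscle arrays. Their mean log2 Cy5 signal was 14.01 for 0 µg day 1 replicate 1 on slide 5 and 13.82 for replicate 4. It was 13.61 for 162 µg day 1 replicate 3, and at most 8.16 on the other arrays of the 4 groups. The squamous list had median changes of -0.77 at day 1, -0.08 at day 28 and 0.70 between days. Without the muscle arrays, 1 mouse with 0 µg remained at day 1, and the counts of called genes are also given on that basis. The part of the muscle and squamous signal in the results was not tested.

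Most of the response present at day 1 was smaller at day 28. Of 23253 genes tested, 393 (1.69%) were called at day 1 by limma at a Benjamini-Hochberg adjusted p under 0.05, and 348 (1.5%) rose while 45 (0.194%) fell. At day 28, 146 (0.628%) were called, of which 144 (0.619%) rose and 2 (0.0086%) fell. The 348 genes that rose at day 1 had a median log2 change of 0.71 then and 0.24 at day 28, and the change was smaller at day 28 for 314 of them. The 45 that fell had medians of -0.58 and -0.18, and the change was smaller at day 28 for all 45. In the other direction, the 144 genes that rose at day 28 had a median of 1.11 then and 0.56 at day 1. These genes were picked on the day named, which favours a larger change on that day. The day 1 count was 200, 234 and 223 without 162 µg day 1 replicate 1, 2 or 4, 249 without 0 µg day 1 replicate 1 and 818 without 162 µg day 1 replicate 3. It was 471 without the muscle arrays, of which 207 were among the 393. The day 28 count was 73, 65 and 78 without 0 µg day 28 replicate 1, 2 or 3, 84 without 162 µg day 28 replicate 2 and 234 without the muscle arrays. Across all 23253 genes the changes of day 1 and day 28, which share no mouse, had a Pearson correlation of 0.387, given as a description because genes are not independent.

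The difference between days itself was called for 6 genes (0.0258%), all of them smaller at day 28. At an unadjusted p under 0.05 there were 899 (3.87% of those tested, where the threshold alone would mark 5%), of which 317 were larger and 582 smaller at day 28. A response was termed faded where a day 1 change was called and the difference was called in the opposite direction, faded in part where the day 28 change was still called, persisted where both days were called in the same direction and the difference was not, and emerged where the day 28 change and the difference were called but not the day 1 change. On these terms 5 genes faded (0.0215%), 1 faded in part (0.0043%) and 46 persisted (0.198%). None emerged in limma, and the 317 genes with an unadjusted p under 0.05 for a larger change at day 28 were 1.36% of those tested. The remaining 440 called genes (1.89%) stayed undecided, because a call on a single day does not show that the days differ. The count of 6 rests on few mice. It was 1 without 162 µg day 1 replicate 1, 2 or 4 or 0 µg day 28 replicate 1 or 2, 2 without the mouse with conflicting labels, and 3 without 0 µg day 1 replicate 1 or 3, 162 µg day 28 replicate 2 or 4 or 0 µg day 28 replicate 3. It was 10 without 0 µg day 1 replicate 2, 28 without 162 µg day 1 replicate 3 and 0 with the conflicting mouse counted at day 1. Without the muscle arrays it was 15, of which 3 were among the 6. Those that lost their call were Saa1 (adjusted p 0.143), Timp1 (0.0597) and Mcm7 (0.0688). The plot of changes on each day shows the called genes with a symbol.

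**Figure D1:**
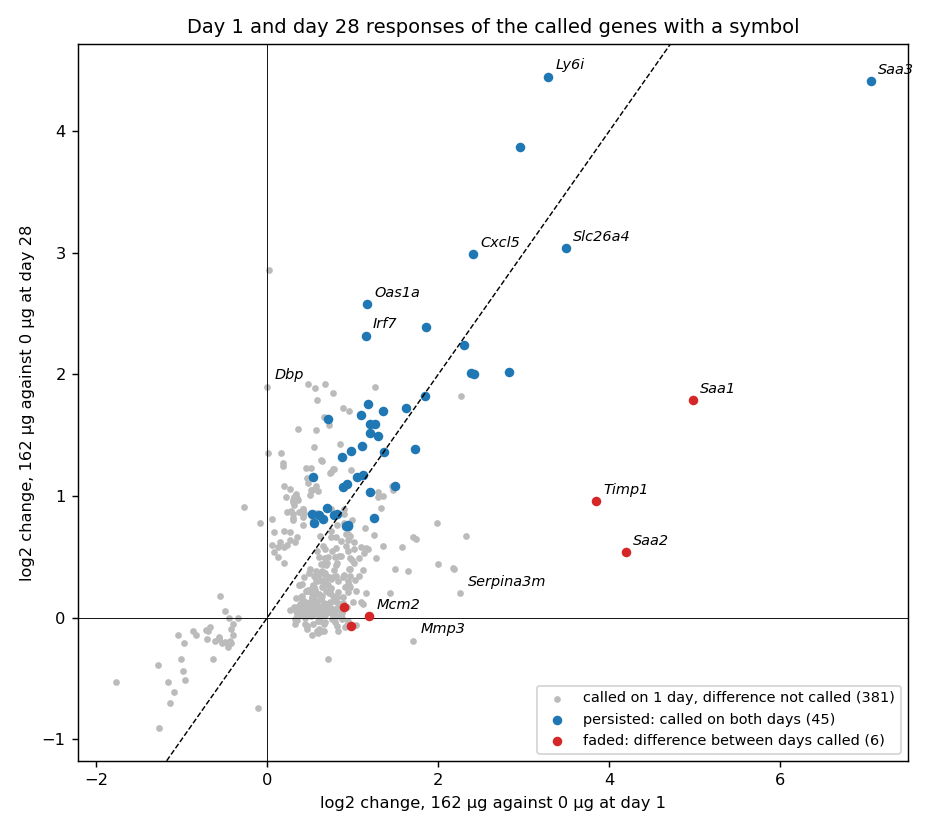
Log2 change at day 1 (horizontal axis) against log2 change at day 28 (vertical axis), 162 µg minus 0 µg, for the 432 genes with a symbol called on either day, coloured by class, with the dashed line marking equal changes. The 6 faded genes lie far below the line, the 45 persisted ones with a symbol lie on both sides of it, and 381 are undecided.

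Among the responses that faded, the acute phase genes Saa2 and Saa1 had the largest differences between days. Saa2 encodes a serum amyloid A protein and had levels of 4.64, 4.48, 3.56 and 3.99 in the 162 µg mice at day 1, against 0.14, 0.00, -0.04 and -0.21 in the 0 µg mice. At day 28 it stood at 0.31, 0.48, 0.79 and 0.24 with 162 µg and at -0.02, 0.01 and -0.25 with 0 µg. At day 28 the treated mice lay just above the controls and far below every treated mouse of day 1. Saa2 was not above background on any control array, so its rise at day 1 was at least 17.3-fold (adjusted p 3.12e-11). At day 28, when 2 of 5 treated arrays were above background, the log2 change was 0.54 (SE 0.25, adjusted p 0.948). The fitted difference between days was -3.65 (adjusted p 2.31e-06), which is no bound because most of these arrays lie at background, and it kept its call with any single mouse left out. With the conflicting mouse counted at day 1 it was -2.84 (adjusted p 1), and with Agilent's processed signals it was -5.05 (adjusted p 0.0636).

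Saa1, the near-identical neighbour of Saa2 in the gene cluster, was the gene that faded in part. Its levels at day 1 were 4.92, 4.21, 3.72 and 4.87 with 162 µg against -0.55, 0.20, -0.86 and -1.0 with 0 µg. At day 28 they were 0.61, 0.87, 1.92 and 0.10 against -0.53, -1.06 and -1.16. All treated mice of day 28 were still above all of their controls, and none reached the treated mice of day 1. The rise was 31.6-fold at day 1 (adjusted p 2.21e-08) and 3.46-fold at day 28 (adjusted p 0.0369), and the log2 difference between days was -3.19 (SE 0.56, adjusted p 0.0311). Because Saa1 and Saa2 are so alike, probes may read both transcripts, and their values are uncertain as separate measurements. With slide as a fixed term the day 28 adjusted p was 0.0858, so the class then changes to faded. The day 28 call of Saa1 ended without any 1 of 6 mice, the 3 with 0 µg and replicates 1, 2 and 3 with 162 µg (adjusted p 0.0648 to 0.228).

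Timp1, a secreted inhibitor of matrix metalloproteinases, followed the same course. With 162 µg its levels were 2.10, 1.63, 0.27 and 2.04 at day 1 and -1.76, -1.51, -0.94 and -2.15 at day 28. With 0 µg they were -2.47, -2.0, -2.08 and -2.80 at day 1 and -2.45, -2.60 and -2.60 at day 28. The lowest treated mouse at day 1 was replicate 3, which carried muscle signal, and it was still above every mouse of the other 3 groups. Timp1 rose 14.4-fold at day 1 (adjusted p 2.27e-07), its log2 change at day 28 was 0.96 (SE 0.37, adjusted p 0.648), and the difference between days was -2.89 (SE 0.50, adjusted p 0.0311). For Saa1 and Timp1 the call of the difference ended without any 1 of 12 mice, all but 0 µg day 1 replicate 2 and the third replicates of both 162 µg groups (adjusted p 0.0656 to 0.138 for Saa1 and 0.0513 to 0.138 for Timp1). Within each of the 4 slides that hold all 4 groups the difference was negative. It ran from -4.6 to -2.82 for Saa2, from -4.88 to -1.6 for Saa1 and from -4.39 to -0.69 for Timp1. Slides 1 and 5 carry the same mice, replicate 1 of each group, including the mouse with conflicting labels. Here and below, the 4 slides are therefore not separate sets of mice.

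**Figure D2:**
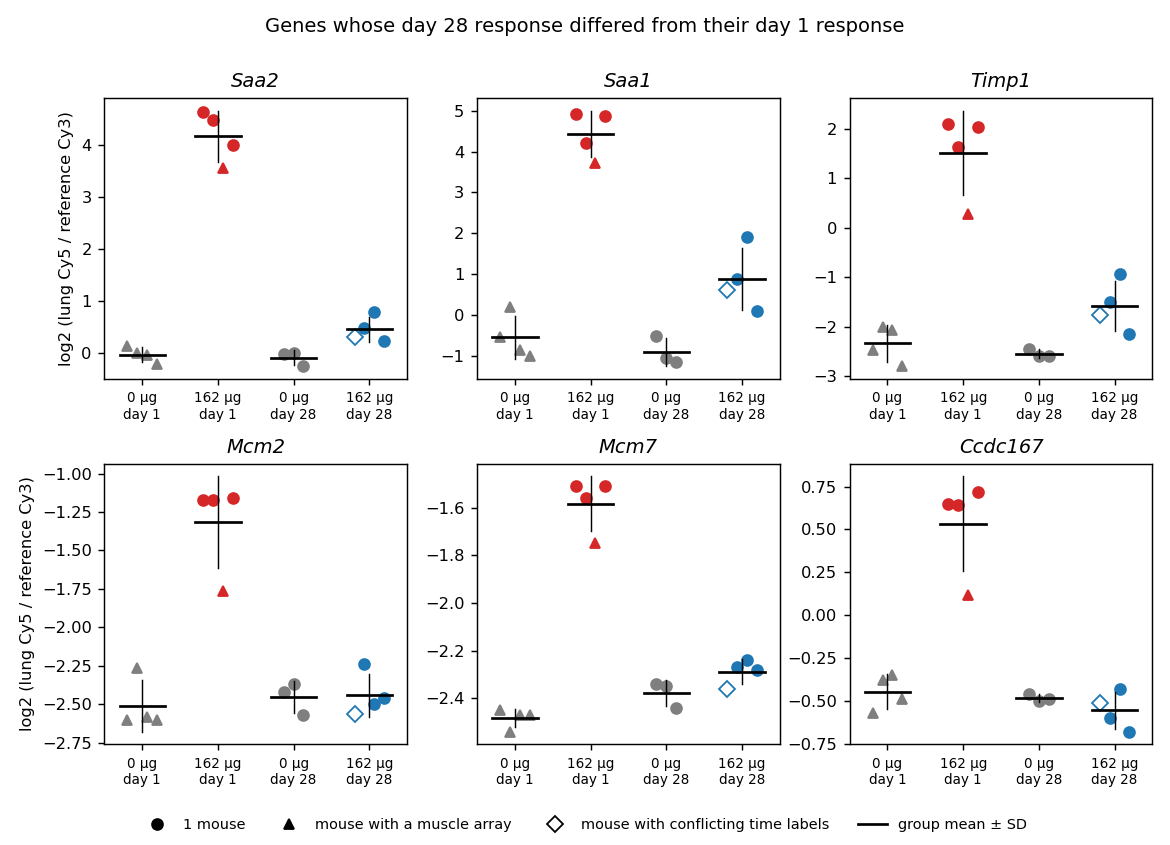
Log2 ratio of lung to reference RNA (vertical axes) in each mouse of the 4 groups for the 6 genes whose response was smaller at day 28, with circles for mice, triangles for mice with a muscle array, an open diamond for the mouse with conflicting time labels and bars for the group mean ± SD. In every panel all 162 µg mice of day 1 lie above all mice of the other 3 groups, and for Saa2 they run from 3.56 to 4.64 against 0.24 to 0.79 at day 28.

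The acute phase list includes Saa2, Saa1 and Timp1, its only called differences. Of 22 measured members, 13 rose at day 1 and 4 at day 28, and 9 fell from day 1 to day 28 among the treated mice, in which 230 of all genes fell (0.989%) and 184 rose (0.791%). The median log2 change of the list was 1.40 at day 1 and 0.47 at day 28, and the median difference between days was -0.49, with 18 of 22 members negative and 3 classed as persisted, against 0.00 and 11822 of 23253 over all genes. It was -1.34 to -0.1 within the 4 slides. Not every acute phase gene faded, and Itih4 was classed as persisted, with changes of 1.30 at day 1 and 1.49 at day 28. Its day 1 call ended without 1 mouse (adjusted p 0.0577) and its day 28 call without any 1 of 3 (0.0523 to 0.0821). Hpx, which encodes the haem scavenger hemopexin, rose 4.58-fold at day 1, from -0.02, -0.19, 0.09 and 0.29 to 2.84, 2.88, 1.57 and 1.65 (adjusted p 2.08e-05). At day 28 its levels were 0.71, 0.76, 0.58 and 0.34 with 162 µg and 0.21, 0.35 and 0.04 with 0 µg, which overlap, and the difference of -1.80 missed the threshold (adjusted p 0.109). The serine protease inhibitors Serpina3m (2.26 at day 1, 0.20 at day 28) and Serpina3n (2.00 and 0.44) also rose at day 1, with differences of -2.05 (adjusted p 0.0778) and -1.56 (adjusted p 0.28). That of Serpina3m passed with slide as a fixed term (0.025), with muscle and squamous scores as covariates (0.0323) and without the muscle arrays (0.032). Serpina3m and Serpina3n belong to a cluster of close copies, so their probes may not be specific.

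Mcm2 and Mcm7, which also faded, encode subunits of the MCM helicase that opens DNA at replication origins, and Mcm5, just outside the threshold, encodes another. The promoters of Mcm7 and Mcm5 are shown because they hold the E2F sites TTTCCCGC and TTTGGCGC, respectively, read on the strand opposite to the printed one; each window has 300 bases around the RefSeq start in GRCm38.p6, and capitals mark the match. Mcm7 has 2 such windows, and the other holds neither site.
Mcm7, chr5:138171834-138172133, minus strand: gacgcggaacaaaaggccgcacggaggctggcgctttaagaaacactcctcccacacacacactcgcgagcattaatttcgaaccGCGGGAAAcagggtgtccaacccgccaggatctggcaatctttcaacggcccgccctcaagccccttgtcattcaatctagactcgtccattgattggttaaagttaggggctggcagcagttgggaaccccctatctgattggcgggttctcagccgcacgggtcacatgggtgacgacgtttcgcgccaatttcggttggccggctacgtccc
Mcm5, chr8:75109259-75109558, plus strand: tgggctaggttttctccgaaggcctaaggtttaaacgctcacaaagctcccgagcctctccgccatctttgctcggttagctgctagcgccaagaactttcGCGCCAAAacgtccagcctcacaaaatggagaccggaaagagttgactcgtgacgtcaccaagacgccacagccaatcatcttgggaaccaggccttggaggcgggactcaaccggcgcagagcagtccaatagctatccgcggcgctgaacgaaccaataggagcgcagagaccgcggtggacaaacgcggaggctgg
Either E2F site, searched on both strands, was in 1.8% of all 27025 promoters and in 2.99% of the 12043 tested genes with a promoter. It was in 23 of 208 (11.1%) genes whose rise was called at day 1 only. It was in 1 of 58 (1.72%) whose rise was called at day 28 only and in 0 of 32 that persisted. Of the 6 genes with a called difference, Mcm7 had one. A match describes the letters of the window and is not a measured binding site.

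Mcm2 stood at -1.17, -1.17, -1.76 and -1.16 with 162 µg at day 1 against -2.60, -2.26, -2.58 and -2.60 with 0 µg. At day 28 its levels were -2.56, -2.24, -2.50 and -2.46 against -2.42, -2.37 and -2.57. The day 1 groups do not overlap and the day 28 groups do. Mcm2 rose 2.29-fold at day 1 (adjusted p 8.05e-06), its log2 change at day 28 was 0.01 (SE 0.14, adjusted p 1), and the difference was -1.18 (SE 0.19, 95% interval -1.57 to -0.79, adjusted p 0.013). Mcm7 showed the same order with -1.51, -1.56, -1.75 and -1.51 against -2.45, -2.54, -2.47 and -2.47 at day 1, and with -2.36, -2.27, -2.24 and -2.28 against -2.34, -2.35 and -2.44 at day 28. Its rise at day 1 was 1.87-fold and its difference -0.82 (SE 0.14, adjusted p 0.034). The call of Mcm2 ended without 162 µg replicate 1, 2 or 4 of day 1, 162 µg day 28 replicate 1, or 0 µg day 28 replicate 1 or 2 (adjusted p 0.0503 to 0.0921). That of Mcm7 ended without any mouse but the third replicates of both 162 µg groups (adjusted p 0.0516 to 0.138), and with slide as a fixed term (0.0653).

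Of 27 measured cell cycle genes, 10 rose at day 1, none was called at day 28 (2 at an unadjusted p under 0.05 in limma), and 10 fell from day 1 to day 28 among the treated mice. Over all genes 1.5% rose at day 1 and 0.989% fell between the days among the treated mice. The list's median log2 change was 0.62 at day 1 and 0.13 at day 28, with 25 of 27 differences negative and a median difference of -0.42, which was -1.02 to -0.12 within slides. Mcm5 rose by 0.93 (SE 0.13) at day 1 and had a difference of -0.98 (adjusted p 0.0778), and Mcm3 rose by 1.16 with a difference of -0.96 (adjusted p 0.231). Uhrf1, which maintains DNA methylation at replication forks, rose by 1.43 at day 1 and stood at 0.20 at day 28. Rrm2, a subunit of ribonucleotide reductase, rose by 1.07 and stood at 0.49, and Pcna, the polymerase clamp, rose by 0.78 and stood at 0.14. In bulk lung RNA, fewer cells of a type and less RNA per cell cannot be told apart.

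Ccdc167, a small gene of little known function, completed the 6. Its levels were 0.65, 0.64, 0.12 and 0.72 with 162 µg at day 1 against -0.57, -0.38, -0.35 and -0.49, and -0.51, -0.60, -0.43 and -0.68 at day 28 against -0.46, -0.50 and -0.49. It rose 1.97-fold at day 1 and its difference was -1.05 (SE 0.16, adjusted p 0.013). The other probe for this gene did not show it, with a log2 change of -0.07 at day 1 and a difference of 0.08, so the call rests on a single probe. It also ended without 162 µg day 1 replicate 1, 2 or 4 or 0 µg day 28 replicate 1 or 2 (adjusted p 0.0503 to 0.0728).

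Several groups that rose at day 1 had differences that did not pass. Of 13 CC chemokines, which attract monocytes, T cells and eosinophils, 7 rose at day 1 and 3 at day 28, with medians of 1.35 and 0.67. Without the mouse with conflicting labels 0 were called at day 28, and with it counted at day 1 there was 1. Ccl17, a ligand of CCR4, had levels of 3.94, 3.60, 3.16 and 4.43 with 162 µg at day 1 against 2.01, 1.31, 1.84 and 1.29, and of 2.13, 2.13, 2.27 and 2.50 at day 28 against 2.07, 2.10 and 1.37. The treated mice of day 28 lay below all treated mice of day 1 and only just above their own controls. Its difference was -1.76 (adjusted p 0.254), and without the muscle arrays its day 1 change was 1.37 (adjusted p 0.0614). Of 11 inflammatory cytokines, 3 rose at day 1 and none was called at day 28 (3 at an unadjusted p under 0.05 in limma). These were Il1b (1.58 and 0.58), Il33 (1.16 and 0.57) and Tnf (0.70 and 0.45), whose day 1 calls ended without any 1 of 6, 2 and 3 mice (adjusted p 0.0559 to 0.0819, 0.0585 to 0.0746 and 0.0533 to 0.0785).

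Some matrix turnover genes were called at day 1 and none at day 28. Of 18 proteases and their inhibitors 6 rose at day 1 and none passed at day 28 (4 at an unadjusted p under 0.05 in limma), with medians of 0.57 and -0.03. At day 28 Timp1 had 0.96, the macrophage elastase Mmp12 0.67 and the neutrophil collagenase Mmp8 0.56. Mmp3, which degrades matrix proteins, stood at 1.76, 0.84, 0.07 and 1.60 with 162 µg at day 1 against -0.62, -1.24, 0.12 and -0.84, and at -0.50, -0.94, -0.56 and -0.20 at day 28 against -0.01, -0.68 and -0.39. Replicate 3 of the treated mice lay within the controls at day 1, and the groups overlapped at day 28. Mmp3 rose by 1.71 (adjusted p 0.00208) and had a difference of -1.90 (adjusted p 0.231). Of 21 collagen and matrix genes 2 rose at day 1, the cross-linking enzyme Lox (0.71) and the fibrillar collagen Col5a1 (0.45), and none was called at day 28 (0 at an unadjusted p under 0.05 in limma). Among the treated mice, 9 of the 21 fell from day 1 to day 28, against 0.989% of all genes. The call of Lox at day 1 ended without any 1 of 4 mice (adjusted p 0.0631 to 0.0885) and that of Col5a1 without any 1 of 5 (0.0727 to 0.137).

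The 46 genes that persisted, 45 of them with a symbol, all rose on both days. Their median log2 change was 1.18 at day 1 and 1.40 at day 28. Their difference between days ran from -2.64 to 1.41 with a median of 0.19, and the interval held 0 for 40 of the 46. The median half-width of these 95% intervals was 0.69. The count was 25 without 0 µg day 28 replicate 1 or 2, 27 without 0 µg day 28 replicate 3, 28 or 29 without 162 µg day 1 replicate 4 or 1, 29 without 162 µg day 28 replicate 2 and 89 without 162 µg day 1 replicate 3, and 30 with Agilent's processed signals. Without the muscle arrays it was 62, of which 33 were among the 46.

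Saa3, the serum amyloid A of the lung, had the highest day 1 change of the persisted genes. Its levels were 5.55, 4.44, 3.86 and 5.28 with 162 µg at day 1 against -2.43, -0.92, -2.81 and -2.93 with 0 µg. At day 28 they were 0.48, 0.64, 2.00 and 0.10 against -3.56, -3.55 and -3.71. Every treated mouse was above every control on both days, and every treated mouse of day 28 was below those of day 1. Saa3 rose 133-fold at day 1 (adjusted p 5.12e-08) and 21.3-fold at day 28 (adjusted p 3.66e-04). The difference was -2.64 (SE 0.84, 95% interval -4.37 to -0.91, adjusted p 0.748), while the treated mice alone fell by 3.98 on the log2 scale from day 1 to day 28 (adjusted p 4.39e-04). Between the control groups the day 28 level was -1.33 relative to day 1, which enters the difference. It was thus called persisted by the rule although its interval lay below 0.

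Ly6i, of the Ly6 family of surface proteins, had the largest day 28 change of the persisted genes. Ly6i stood at 3.88, 3.95, 2.69 and 3.84 with 162 µg at day 1 against 0.24, 0.27, 0.50 and 0.19, and at 4.89, 5.73, 4.65 and 4.67 at day 28 against 0.61, 0.47 and 0.50. Treated mice of day 28 were above those of day 1, and all controls lay between 0.19 and 0.61. Ly6i rose 9.78-fold at day 1 and 21.9-fold at day 28, with a difference of 1.17 (95% interval 0.01 to 2.32, adjusted p 1). Ly6f rose 7.76-fold and 14.6-fold, but the Ly6 genes are near-identical copies and their probes may share transcripts. Slc26a4, the anion exchanger pendrin of airway epithelium, stood at 5.56, 5.30, 4.78 and 6.25 against 1.57, 1.73, 2.26 and 2.35 at day 1 and at 5.62, 5.90, 5.50 and 4.79 against 2.54, 2.01 and 2.68 at day 28. The treated mice of the 2 days overlap, and the rise was 11.3-fold at day 1 and 8.24-fold at day 28 (difference -0.45, 95% interval -2.13 to 1.23). Its day 28 call ended without 0 µg day 28 replicate 1 (adjusted p 0.0515) or replicate 2 (adjusted p 0.0926).

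Chemokines for neutrophils, T cells and monocytes were among the persisted genes. Of 6 neutrophil CXC chemokines 3 rose at day 1 and 1, Cxcl5, was also called at day 28, with list medians of 0.41 and 0.24. Cxcl1 (0.75 and 0.66) and Cxcl3 (0.96 and 0.27) were called at day 1 only. Cxcl5, made by alveolar epithelium, had levels of -0.48, -0.51, -1.22 and -0.48 with 162 µg at day 1 against -3.46, -3.21, -2.72 and -2.93, and of 0.29, -0.08, -0.24 and -0.90 at day 28 against -3.03, -2.83 and -3.80. It rose 5.31-fold at day 1 and 7.92-fold at day 28 (difference 0.58, 95% interval -0.75 to 1.90), and it was above background on 2 of 5 and 3 of 4 control arrays. With Agilent's processed signals its log2 changes were 4.54 and 4.77 in place of 2.41 and 2.99. The interferon-induced Cxcl10 stood at 1.33, 1.12, -0.37 and 2.38 against -1.42, -0.73, -1.33 and -1.27 at day 1 and at 0.69, 1.46, 1.21 and 1.02 against -1.16, -1.04 and -1.23 at day 28. Its rise was 4.94-fold and 4.72-fold, and the difference of -0.06 had an interval of -1.10 to 0.97. The monocyte chemokines Ccl7 (2.38 and 2.01) and Ccl2 (1.62 and 1.72) also rose on both days. Their day 28 calls ended without any 1 of 4 mice for Ccl7 (adjusted p 0.053 to 0.125) and any 1 of 6 for Ccl2 (0.0501 to 0.281), and the day 1 call of Ccl2 without any 1 of 3 (0.0574 to 0.0795).

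Defence genes of epithelium and phagocytes rose on both days. Lcn2, the iron-siderophore binding lipocalin, had levels of 4.47, 3.92, 3.84 and 4.58 with 162 µg at day 1 against 1.80, 1.87, 1.82 and 1.63, and of 4.14, 4.35, 3.79 and 3.41 at day 28 against 2.20, 1.68 and 1.89. It rose 5.35-fold and 4.00-fold (log2 changes 2.42 and 2.00, or 3.74 and 2.82 from Cy5 alone; difference -0.42, 95% interval -1.31 to 0.47). Acod1, the macrophage enzyme that makes itaconate, stood at -1.36, -1.20, -2.28 and -0.81 against -3.45, -2.81, -3.16 and -3.67 at day 1 and at -0.89, -0.87, -0.97 and -1.98 against -3.40, -3.28 and -4.01 at day 28. It rose 3.63-fold and 5.23-fold, with 3 of 5 and 3 of 4 control arrays above background. Processed signals gave log2 changes of 3.28 and 4.03 in place of 1.86 and 2.39. Noxo1, the organiser of the epithelial NADPH oxidase, rose 3.59-fold and 3.52-fold, with a difference of -0.03 (95% interval -0.85 to 0.79). AA467197 rose 7.11-fold and 4.06-fold, and its day 28 call ended without any 1 of 6 mice (adjusted p 0.0566 to 0.152). With Agilent's processed signals its day 28 log2 change was 1.89 and not called (adjusted p 0.8). In each of these genes every treated mouse was above every control of its day.

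**Figure D3:**
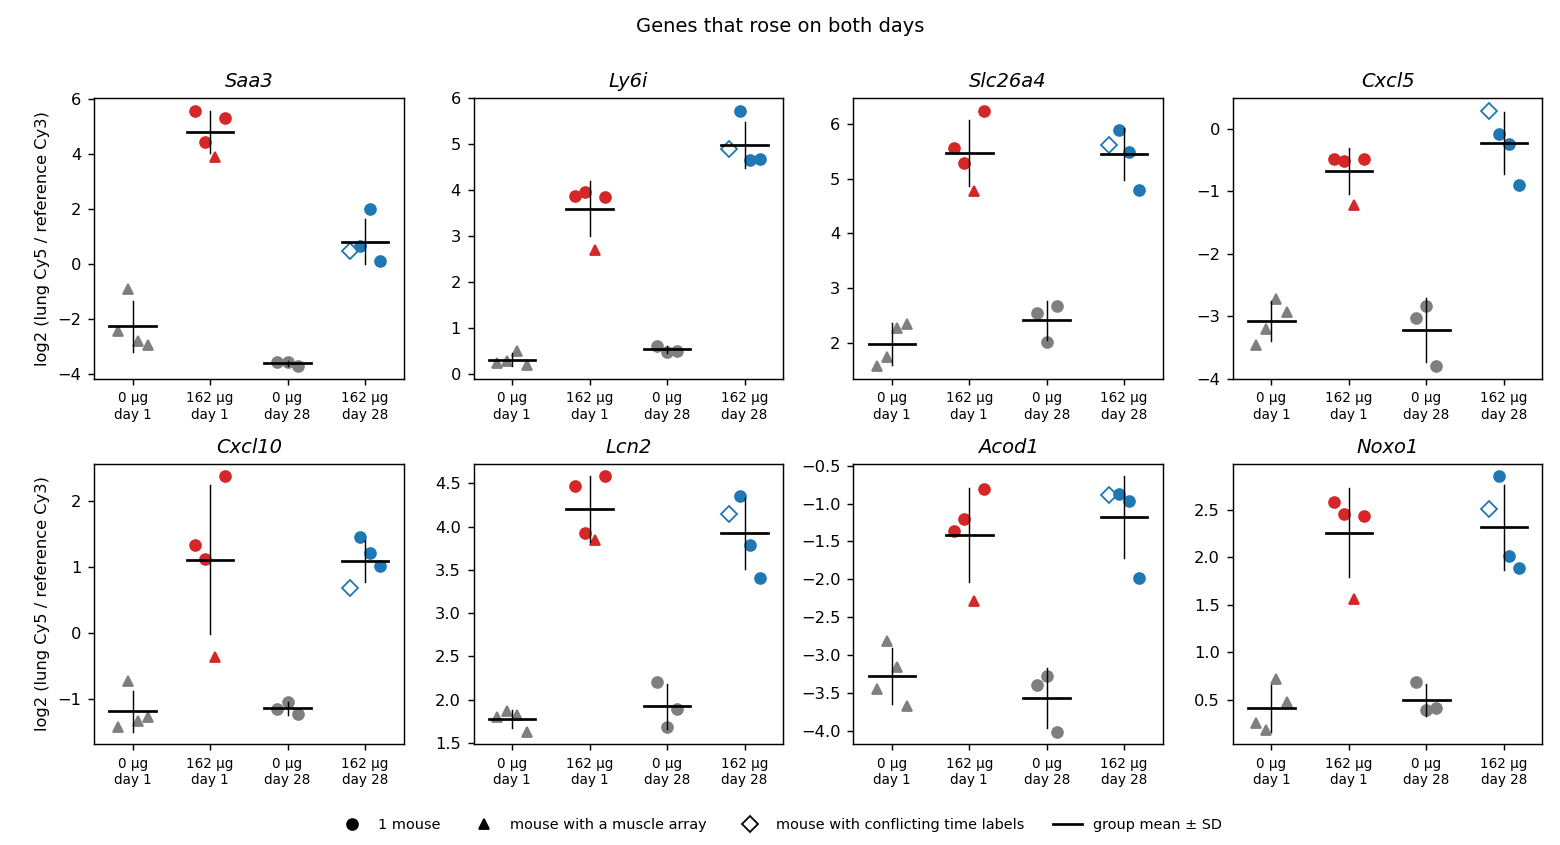
Log2 ratio of lung to reference RNA (vertical axes) in each mouse of the 4 groups for 8 genes that rose on both days, with circles for mice, triangles for mice with a muscle array, an open diamond for the mouse with conflicting time labels and bars for the group mean ± SD. Treated mice lie above the controls of their day in every panel. For Slc26a4 the treated mice run from 4.78 to 6.25 at day 1 and from 4.79 to 5.90 at day 28, while for Saa3 they drop between the days.

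More interferon response genes were called at day 28 than at day 1, although none passed in the difference between days. The promoters of Oas1a, Ifit1, Rsad2 and Cxcl10 are shown because they hold the interferon response element (GAAA, any 2 bases, GAAA), whose matches on either strand are in capitals and run together where they overlap. Windows are 300 bases around the RefSeq start in GRCm38.p6.
Oas1a, chr5:120907476-120907775, minus strand: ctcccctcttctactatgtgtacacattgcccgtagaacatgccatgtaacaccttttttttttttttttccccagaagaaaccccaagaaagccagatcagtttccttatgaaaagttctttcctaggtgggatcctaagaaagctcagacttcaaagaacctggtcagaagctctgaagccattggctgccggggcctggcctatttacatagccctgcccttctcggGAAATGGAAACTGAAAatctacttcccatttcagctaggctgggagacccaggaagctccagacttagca
Ifit1, chr19:34640639-34640938, plus strand: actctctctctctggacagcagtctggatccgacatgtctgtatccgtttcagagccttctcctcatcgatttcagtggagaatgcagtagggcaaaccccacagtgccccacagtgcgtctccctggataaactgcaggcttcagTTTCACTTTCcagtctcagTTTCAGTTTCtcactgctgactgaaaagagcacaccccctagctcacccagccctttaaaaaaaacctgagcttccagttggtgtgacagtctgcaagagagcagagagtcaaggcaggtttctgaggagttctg
Rsad2, chr12:26456403-26456702, minus strand: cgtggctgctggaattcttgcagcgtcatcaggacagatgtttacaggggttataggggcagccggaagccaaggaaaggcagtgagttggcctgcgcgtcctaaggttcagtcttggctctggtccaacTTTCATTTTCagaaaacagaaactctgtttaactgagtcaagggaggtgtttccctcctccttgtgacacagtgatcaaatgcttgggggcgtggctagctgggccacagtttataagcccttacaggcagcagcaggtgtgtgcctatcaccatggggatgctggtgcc
Cxcl10, chr5:92348840-92349139, minus strand: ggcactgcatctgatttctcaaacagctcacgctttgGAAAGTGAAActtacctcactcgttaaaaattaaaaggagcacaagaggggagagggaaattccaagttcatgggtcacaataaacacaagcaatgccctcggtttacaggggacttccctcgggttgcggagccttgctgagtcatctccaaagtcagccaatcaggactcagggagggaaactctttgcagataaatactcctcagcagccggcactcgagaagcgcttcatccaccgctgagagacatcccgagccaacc
The element was in 3.99% of all promoters and 3.8% of those of tested genes. It was in 12 of 20 interferon response genes with a promoter (60%) and in 10 of 32 (31.2%) that persisted. It was in 19 of 58 genes (32.8%) whose rise was called at day 28 only and in 7 of 208 (3.37%) whose rise was called at day 1 only. The NF-kB site (GGGA, any base, TTTCC) was in 0.466% of all promoters, in 0 of 6 faded genes and in 0 of 32 that persisted. That site was in 2 of 58 (3.45%) whose rise was called at day 28 only and in 2 of 208 (0.962%) whose rise was called at day 1 only.

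Of 25 interferon response genes, 5 rose at day 1 and 19 at day 28, and 13 rose from day 1 to day 28 among the treated mice. Over all genes those shares were 1.5%, 0.619% and 0.791%, and 11822 of 23253 differences between days were negative. The list's median log2 change was 0.68 at day 1 and 1.20 at day 28, and the difference was positive for all but 1 member, with a median of 0.47. Within slides that median ran from -0.47 to 1.33 and was negative on 2 of the 4. Oas1a, which makes the activator of RNase L, had levels of 0.57, 0.39, -0.53 and 1.28 with 162 µg at day 1 against -1.01, -0.21, -0.83 and -0.94, and of 1.66, 2.34, 2.25 and 2.14 at day 28 against -0.46, -0.70 and -0.28. The groups overlapped at day 1 through treated replicate 3 and were well apart at day 28. The rise was 2.26-fold (adjusted p 0.0341) and 5.98-fold (adjusted p 6.7e-05), the difference was 1.41 (95% interval 0.52 to 2.29, adjusted p 0.617), and treated mice rose by 1.67 between the days (adjusted p 0.00218).

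Irf7, the master regulator of the late interferon response, stood at -0.14, -0.68, -0.98 and 0.63 with 162 µg at day 1 against -1.38, -1.62, -1.35 and -1.42, and at 0.64, 1.68, 1.57 and 0.97 at day 28 against -1.15, -1.0 and -1.15. The groups did not overlap on either day. It rose 2.22-fold and 4.99-fold, with a difference of 1.17 (adjusted p 1). Oas2 was not called at day 1 (0.48, adjusted p 0.423) and rose 3.78-fold at day 28 (adjusted p 3.64e-04), with the smallest adjusted p of the difference among the named interferon genes (1.44, 95% interval 0.70 to 2.19, adjusted p 0.28). Ifit1, which binds foreign RNA, rose 2.14-fold and 3.18-fold, and Isg15, a ubiquitin-like modifier, had a change of 1.26 (adjusted p 0.113) at day 1 and 1.90 (adjusted p 0.03) at day 28. The day 1 calls ended without any 1 of 6 mice for Oas1a (adjusted p 0.0722 to 0.156) and for Ifit1 (0.0619 to 0.14) and any 1 of 11 for Irf7 (0.0514 to 0.184). The day 28 call of Isg15 ended without any 1 of 5 (0.0929 to 0.225). Oas and Ifit genes have close copies that probes may not separate.

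Of 13 MHC class I presentation genes none was called at day 1 (6 at an unadjusted p under 0.05 in limma) and 4 rose at day 28, with list medians of 0.31 and 0.65. Over all genes 0.619% rose at day 28. H2-K1, a classical class I heavy chain, had levels of 2.82, 2.42, 2.21 and 2.79 with 162 µg at day 1 against 2.35, 2.56, 2.22 and 2.23, which overlap, and of 3.81, 4.04, 3.43 and 3.61 at day 28 against 2.74, 2.71 and 2.74, which do not. Its change was 0.22 and 0.99, H2-T23 had 0.31 and 0.98, the light chain B2m 0.36 and 0.97, and the class I transactivator Nlrc5 0.40 and 0.86. The control mice of day 28 were also higher than those of day 1, by 0.39 for H2-K1, 0.60 for H2-T23 and 0.43 for B2m, a gap that is subtracted in the difference between days. The day 28 calls ended without any 1 of 5 mice for H2-K1 (adjusted p 0.0722 to 0.123), 4 for H2-T23 (0.0871 to 0.113), 10 for B2m (0.0505 to 0.229) and 7 for Nlrc5 (0.0503 to 0.258).

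Phagocyte genes of lipid and debris handling had a larger median change at day 28. Of 21 genes in this list 5 rose at day 1 and 5 at day 28, with medians of 0.28 and 0.56 and 3 rises from day 1 to day 28 among the treated mice. The shares that rose over all genes were 1.5%, 0.619% and 0.791%. Trem2, a lipid-sensing receptor of macrophages, stood at -0.89, -1.16, -1.56 and -0.98 with 162 µg at day 1 against -2.01, -1.11, -1.87 and -2.30, and at 0.24, 0.53, -0.16 and -0.45 at day 28 against -1.71, -2.11 and -1.84. Gpnmb, a lysosomal glycoprotein of lipid-loaded macrophages, stood at -3.19, -3.09, -3.09 and -2.81 against -3.53, -3.65, -3.73 and -3.51 and at -1.43, -1.46, -2.31 and -2.53 against -3.87, -3.88 and -3.72. Both had treated mice above all other groups at day 28, and Trem2 overlapped with its controls at day 1. Trem2 had changes of 0.68 (adjusted p 0.341) and 1.92 (adjusted p 0.00271). Gpnmb had changes of 0.56 (adjusted p 0.363) and 1.89 (adjusted p 8.02e-04). Their differences were 1.25 (adjusted p 0.92) and 1.33 (adjusted p 0.534). Both were positive within each of the 4 slides, of which slides 1 and 5 hold the same mice. Ch25h, which makes 25-hydroxycholesterol, rose on both days (1.73 and 1.39), the latter call ending without any 1 of 3 mice (adjusted p 0.0518 to 0.111). Ctsk, a lysosomal protease, had changes of 0.78 (adjusted p 0.0778) and 1.22 (adjusted p 0.0104), the latter call ending without any 1 of 3 mice (0.0534 to 0.0752).

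In the list of 14 clock genes 2 rose at day 28 and none was called at day 1. At an unadjusted p under 0.05 in limma there were 3 at day 1 and 11 at day 28. The list's median change was -0.02 at day 1 and 0.51 at day 28. From day 1 to day 28 its median was 0.01 among treated mice and -0.35 among controls. Dbp, a clock output transcription factor, had the largest positive difference among the genes plotted for day 28, 1.91 (SE 0.38, 95% interval 1.12 to 2.69, adjusted p 0.0787). Its levels were 1.57, 1.90, 1.45 and 1.36 with 162 µg at day 1 against 1.93, 1.85, 1.84 and 0.69, and 1.68, 1.21, 1.59 and 2.54 at day 28 against 0.16, -0.66 and 0.05. The day 28 controls stood apart from the other 3 groups, which overlap with each other. Treated mice differed by 0.18 between the days (adjusted p 0.806) and controls by -1.72. Without the muscle arrays the difference was 3.30 (adjusted p 0.0171), with 1 control mouse left at day 1. Nr1d1, the clock repressor REV-ERBα, had a change of -0.27 at day 1 and 0.91 at day 28 (adjusted p 0.0105), a call that ended without 0 µg day 28 replicate 2 (0.13) or 3 (0.0803). Time of day at collection is not given in the sources used here.

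**Figure D4:**
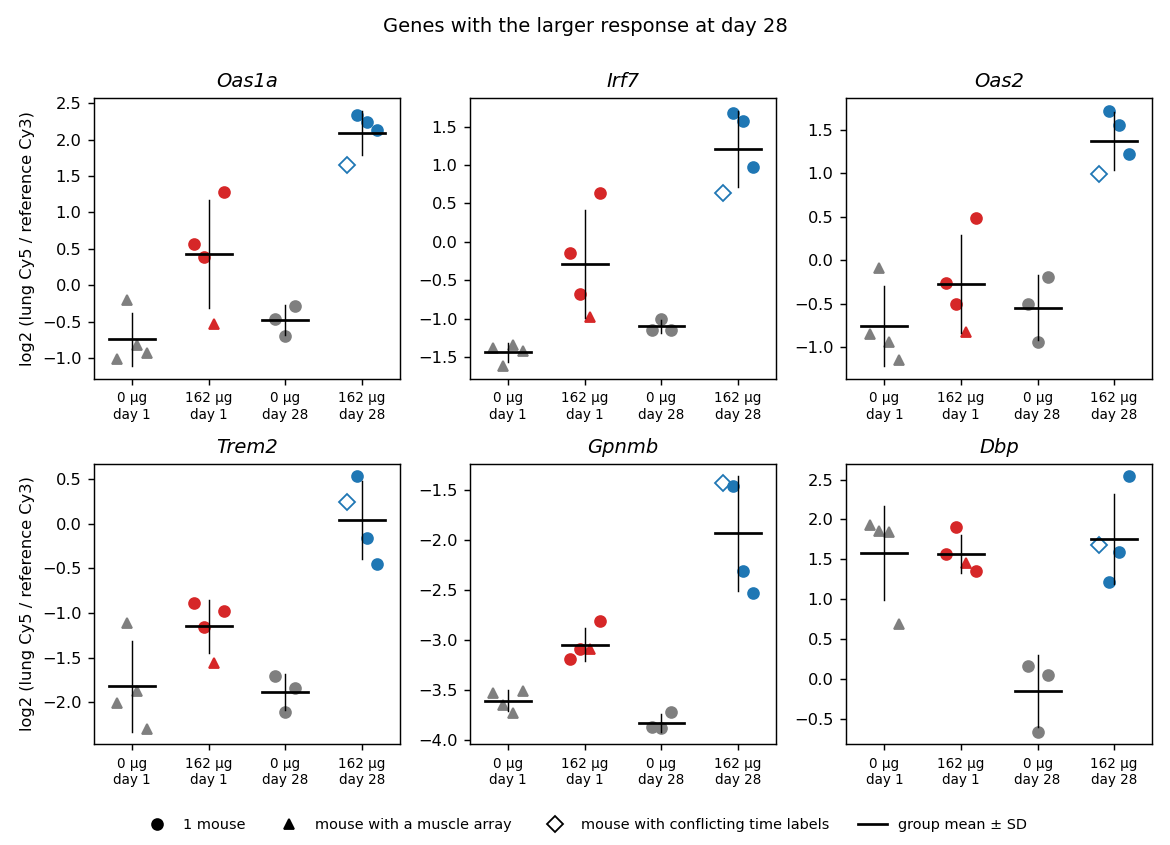
Log2 ratio of lung to reference RNA (vertical axes) in each mouse of the 4 groups for 6 genes with a larger change at day 28, with circles for mice, triangles for mice with a muscle array, an open diamond for the mouse with conflicting time labels and bars for the group mean ± SD. For Oas1a the treated mice run from -0.53 to 1.28 at day 1 and from 1.66 to 2.34 at day 28, while for Dbp the control mice of day 28, at -0.66 to 0.16, stand apart.

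Genes that fell at day 1 had smaller changes at day 28. They were picked on their day 1 change, which favours this, and none of their differences between days was called. Of 17 alveolar macrophage genes 2 fell at day 1, the 1 call at day 28 was the rise of Ctsk, and 4 rose from day 1 to day 28 among the treated mice. Over all genes 0.194% fell at day 1 and 0.791% rose between the days among the treated mice. Fabp1, a fatty acid binding protein, stood at 1.68, 2.88, 1.75 and 0.88 with 162 µg at day 1 against 3.23, 3.67, 3.74 and 3.63, and at 3.14, 3.61, 3.57 and 3.72 at day 28 against 3.97, 3.88 and 4.27. Treated mice lay below their controls on both days, further so at day 1. Its change was -1.77 (adjusted p 0.0133) and -0.53 (adjusted p 1), and that of the eosinophil-associated ribonuclease Ear2 was -0.98 and -0.21. Each day 1 call ended without any 1 of 2 mice (adjusted p 0.0544 to 0.0808 for Fabp1, 0.0524 to 0.076 for Ear2).

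Of 16 club cell genes 2 fell at day 1 and none was called at day 28 (0 at an unadjusted p under 0.05 in limma). Over all genes 0.194% fell at day 1. Ces1d, a carboxylesterase, stood at 6.21, 6.01, 6.13 and 6.06 with 162 µg at day 1 against 6.45, 6.84, 6.63 and 6.68, and at 6.72, 6.91, 6.68 and 6.84 at day 28 against 6.43, 6.68 and 6.71. The groups were separate at day 1 and overlapped at day 28. Its change was -0.55 (adjusted p 0.00526) and 0.18, and the difference of 0.73 (95% interval 0.41 to 1.06) did not pass (adjusted p 0.135). Pon1, a lactonase, had a change of -1.28 at day 1 (adjusted p 0.0054) and -0.39 at day 28. Of 20 oxidative stress and metallothionein genes 3 fell at day 1, the glutathione S-transferases Gsta3 (-1.04), Gstm1 (-0.83) and Gstm2 (-0.44), which stood at -0.14, -0.14 and -0.20 at day 28. The list as a whole did not fall, with 11 of 20 changes positive at day 1 and medians of 0.09 at day 1 and 0.01 at day 28. Its only call at day 28 was the rise of Osgin1 (0.31 at day 1, 0.93 at day 28). That call ended without any 1 of 6 mice (adjusted p 0.0659 to 0.198).

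The controls of the 2 days did not differ by a called gene, which does not show that they matched. At day 28 against day 1 with 0 µg, 0 of 23253 genes (0%) passed in limma. At an unadjusted p under 0.05 there were 1162, where the threshold alone would mark 5%. The control medians of the lists ran from -3.68 for skeletal muscle to 0.57 for NK cells, against 0.02 over all genes. They were -2.01 for squamous epithelium, -1.38 for heart muscle and -0.96 for fatty acid synthesis. Without the muscle arrays 12 passed, with array quality weights 2 and with the strict filter on dim probes 1. Without the muscle arrays the day 1 calls of Irf7, Tnf, Ccl2, Fabp1, Ear2, Ces1d, Pon1 and Gstm2 also ended. So did the day 1 call of Tnfrsf4 (change 0.38) and the day 28 call of Saa1 (change 1.79). With slide as a fixed term the day 28 calls of AA467197, B2m, Nlrc5 and Isg15 ended (0.0522 to 0.0817). The plot of list medians sets the change on each day side by side for 19 of the lists.

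**Figure D5:**
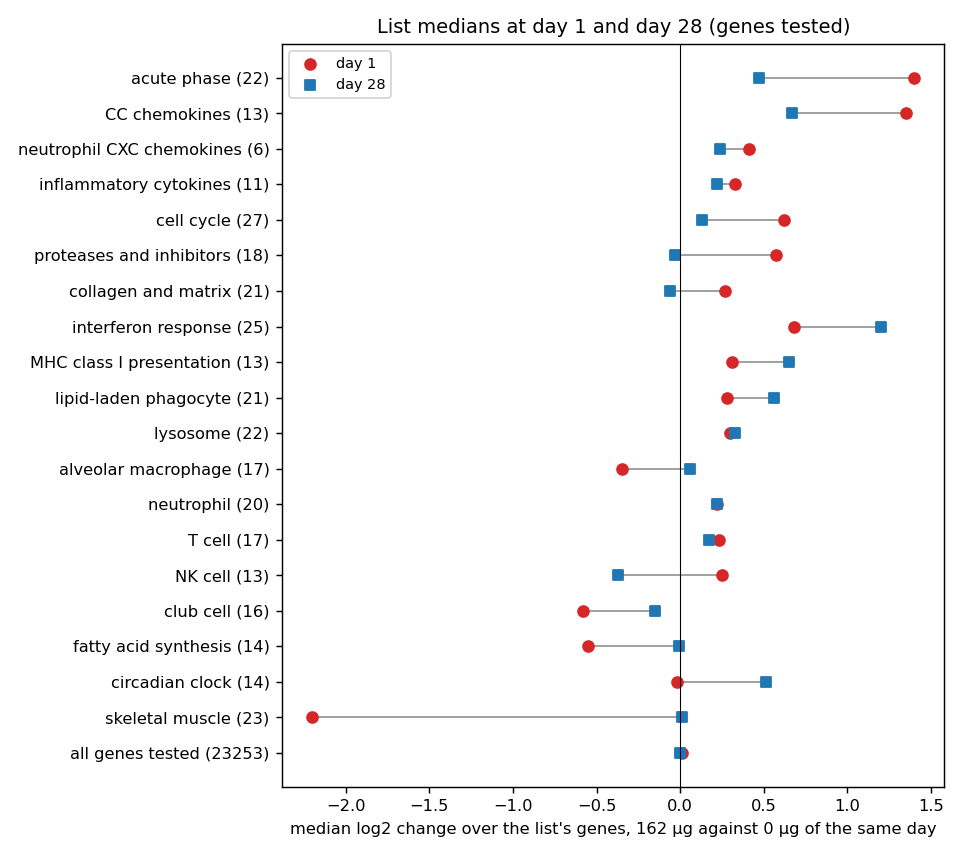
Median log2 change (horizontal axis), 162 µg minus 0 µg, at day 1 (red circles) and day 28 (blue squares) over the measured members of 19 gene lists and over all genes tested. The acute phase list moves from 1.40 to 0.47 and the interferon response list from 0.68 to 1.20, while the medians over all genes are 0.01 and 0.00.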

How the data were processed

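Lung RNA in Cy5 and a universal mouse reference RNA in Cy3 were hybridised to 2-colour Agilent arrays with the dyes never swapped, so a dye effect does not cancel in a level but is shared by all groups. Per the file headers, spots were read with Agilent Feature Extraction 11.0.1.1, and the deposited scanner files give each spot's intensity and a log10 ratio. The authors' deposited value table holds log2 ratios of Cy5 over Cy3, which correlated with the values used here at 0.986 to 0.997 per array, and its normalization is not given in the sources used here. Median Cy5 and Cy3 intensities were background-corrected with normexp (offset 50) and loess-normalized within each array, spots of a probe were averaged, and of the 55681 probes the brightest of each gene stood for it. The direction is Cy5 over Cy3, as the labels give the dyes. Accessions were named through the RefSeq table of GRCm38.p6, and 15197 of 23253 tested genes had a symbol. A gene was tested if 3 or more mice of any group had all their arrays well above background for it in Cy5. The 2 arrays of 4 of the 15 mice were averaged. All 29 mice were fitted with 1 mean per group in limma 3.58.1 (R 4.3.3), with two-sided tests, Benjamini-Hochberg adjustment within each comparison and calls at 0.05. Every adjusted p in the text is from that fit unless an alternative or a left-out mouse is named beside it, and then from limma under that change. The script was tested on simulated data. The day 1 and day 28 changes share no mouse with each other, but each shares its mice with the difference between days.

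Members and gene lists were chosen with earlier results of these data known, and no list was tested. Genes were named by rule, as the largest changes within each class and the 4 largest calls within a list, except the genes printed for each mouse, the genes near the threshold and Ifi27l2a, which were chosen after their values were seen. A fold given as at least N compares the brighter group with the lowest signal well above background. Alternatives concerned normalization, background, filters, probes, slide, arrays, weights, left-out mice and the mouse with conflicting labels.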

Additional observations from a re-analysis of the deposited data

Results flagged for a closer look

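The difference between the changes of day 28 and day 1 was tested directly and passed for 6 genes: Saa2 (-3.65), Saa1 (-3.19), Timp1 (-2.89), Mcm2 (-1.18), Ccdc167 (-1.05) and Mcm7 (-0.82), all on the log2 scale.

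Single mice stood apart from the others of their group in 10 of 102 groups of 4 mice tested, where chance gives about 1 in 20. Of these, 6 concerned 162 µg day 1 replicate 3, the mouse whose array carried muscle signal, which was the lowest of its group. Its levels were -1.76 for Mcm2, 0.12 for Ccdc167, 2.69 for Ly6i, -1.22 for Cxcl5, 1.56 for Noxo1 and -1.72 for Mcm5. These genes are not independent of each other. Mcm2 was high in 0 µg day 1 replicate 2 (-2.26), and Dbp was low in 0 µg day 1 replicate 4 (0.69). At day 28 with 162 µg, Acod1 was low in replicate 4 (-1.98) and Ifit1 in replicate 1 (0.80), the mouse with conflicting time labels.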

How the results depend on the processing

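No gene result changed direction. Over 138 gene calls (72 genes), 75 to 138 kept their call under each alternative with all of them measured, fewest with the mouse with conflicting labels counted at day 1. The difference between days (6 calls) gave 3 calls with median centring, 0 with Agilent's processed signals, 2 with only the 4 groups in the fit, 38 with arrays kept separate and the mouse as a random block, 486 with array quality weights, 15 without muscle arrays, 2 with the conflicting mouse left out and 0 with it counted at day 1. In the same order, faded genes numbered 3, 0, 2, 37, 405, 14, 2 and 0. Day 1 calls (393) became 169 with median centring, 833 with the random block, 3339 with weights, 615 with muscle and squamous scores as covariates and 234 with the conflicting mouse at day 1. Day 28 calls (146) became 88 with processed signals, 576 with weights and 234 without muscle arrays. Calls among treated mice between the days (414) became 62 with median centring, 865 with the random block, 3342 with weights, 844 without muscle arrays, and 272 and 1 with the conflicting mouse left out or at day 1. Those among controls (0) became 1 with the strict filter, 2 with weights and 12 without muscle arrays. Persisted genes (46) became 30 with processed signals, 88 with the random block and 271 with weights. Emerged genes (0) became 1 with Cy5 alone, 1 with the random block, 56 with weights and 1 without muscle arrays. With single mice left out the ranges were 1 to 28 for the difference, 200 to 818 at day 1, 65 to 171 at day 28, 0 to 1 for controls, 208 to 555 for treated mice, 1 to 27 faded, 25 to 89 persisted and 0 to 1 emerged. The cause was not tested. No paired analysis was possible because the labels give no animal, litter or day that pairs mice across groups; a fit with slide as a fixed term gave 7 calls of the difference, 5 of them among the 6. Dim genes such as Saa2, below background on all control arrays, have only a bound on their fold.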

Other observations

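Some genes of T cell regulation were called at day 28. Foxp3, which defines regulatory T cells, had levels of 0.58, 0.69, 0.38 and 0.50 with 162 µg at day 28 against -0.16, -0.01 and 0.03, and of 0.00, 0.14, -0.04 and 0.21 at day 1 against -0.08, 0.05, -0.07 and -0.05. The groups overlapped at day 1 and were separate at day 28, with changes of 0.12 (adjusted p 0.75) and 0.58 (adjusted p 0.029) and a difference of 0.47 (adjusted p 1). Il2ra, the high-affinity IL-2 receptor chain, had changes of 0.35 and 0.66, and Tnfrsf4, the costimulatory receptor OX40, rose by 0.54 and 1.16. The day 28 call of Foxp3 ended without any 1 of 6 mice (adjusted p 0.0547 to 0.216) and the day 1 call of Tnfrsf4 without any 1 of 5 (0.0585 to 0.112). The day 1 call of Tnfrsf4 also ended without the muscle arrays, where its change was 0.38. Of 17 T cell genes, 2 rose at day 1 and 3 at day 28. The median change of the T cell list was 0.23 at day 1 and 0.17 at day 28, and 12 of its 17 differences were negative. Lists of B and plasma cells (17), NK cells (13), monocytes and interstitial macrophages (18) and dendritic cells (17) had no call on either day. In that order, 1, 0, 6 and 8 genes had an unadjusted p under 0.05 in limma at day 1. At day 28 there were 1, 1, 5 and 2. All 13 NK cell differences were negative, with medians of 0.25 at day 1, -0.37 at day 28 and -0.64 between days. The NK cell median between the control groups was 0.57, which enters the difference.

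Ifi27l2a, an interferon-induced mitochondrial protein outside the lists, had the largest day 28 change among genes called at day 28 and not at day 1. It stood at 4.23, 5.33, 5.18 and 4.60 with 162 µg at day 28 against 2.34, 1.19 and 2.40, and at 2.50, 2.41, 3.83 and 3.36 at day 1 against 2.13, 4.72, 2.53 and 2.63. At day 1 the groups overlapped and 0 µg replicate 2 was the highest of all. Its change was 0.02 (adjusted p 0.994) and 2.86 (adjusted p 0.021), and the difference was not called (2.84, adjusted p 0.565). Without any 1 of 5 mice the day 28 call ended (adjusted p 0.0602 to 0.229). C4b, the complement component, had changes of -0.09 and 0.78 (adjusted p 0.0322 at day 28), a call lost without any 1 of 5 mice (0.0799 to 0.192).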
